A study of Mus musculus with 6 samples.

Results

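The fibroblast growth factor (FGF) genes of the adult mouse aortic valve were followed as a set of 37 genes out of 23107 listed. They were chosen by symbol: every numbered *Fgf* gene, *Fgfr1* to *Fgfr4*, *Fgfrl1*, *Spry1* to *Spry4*, *Spred1* to *Spred3*, *Dusp6*, *Etv4* and *Etv5*. RNA-Seq was run on aortic valve tissue of mice aged 4 months, with 3 control and 3 mutant libraries. The mutants were *caAcvr1:Nfatc1Cre* mice, in which Cre recombinase switched on a constitutively active *Acvr1* transgene, a BMP type I receptor. Cre was expressed from the *Nfatc1* locus, which is active in the endocardium, and the study saw recombination in endocardial cells, in valve interstitial cells and where the leaflets meet the wall, some of it perhaps in cells of another origin, but neither in myocardium nor in smooth muscle. The controls were labelled wild type, and the study's methods count as controls mice that carried the transgene alone, *Nfatc1Cre* alone or neither, without saying which were sequenced. All mice were labelled outbred. Neither the labels nor the methods say whether a library held 1 animal or a pool, so the p-values below measure the spread between these libraries, which may be in part technical.

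FGF ligands are secreted proteins that bind receptor tyrosine kinases together with heparan sulfate, and the receptors signal mainly through the Ras and ERK cascade. The same signal switches on its own brakes: the Sprouty (*Spry*) and *Spred* proteins inhibit the cascade, *Dusp6* encodes a phosphatase that inactivates ERK, and *Etv4* and *Etv5* are ETS transcription factors that serve, with the brakes, as readouts of FGF activity. In the embryonic heart, FGF signals from the outflow tract region are needed for the growth of the cushions that become the semilunar valves.

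*Spry1*, *Fgfrl1* and *Dusp6* were the 3 FGF genes with the highest level per kb when all annotated exon bases were counted, and their promoter windows are shown for that reason, as the 250 bases before the RefSeq start site. They come from RefSeq on build GRCm38.p6, are all on the plus strand, and were taken at chr3:37639697-37639946 for *Spry1*, chr5:108693979-108694228 for *Fgfrl1* and chr10:99262981-99263230 for *Dusp6*. Capitals mark the letters CGGAAG or their reverse complement CTTCCG, a sequence that ETS factors such as *Etv4* and *Etv5* are known to bind.
Spry1: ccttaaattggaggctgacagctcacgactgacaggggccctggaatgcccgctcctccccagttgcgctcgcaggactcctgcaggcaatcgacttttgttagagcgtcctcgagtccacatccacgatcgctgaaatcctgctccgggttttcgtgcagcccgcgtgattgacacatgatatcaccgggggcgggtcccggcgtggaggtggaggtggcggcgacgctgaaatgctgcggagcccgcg
Fgfrl1: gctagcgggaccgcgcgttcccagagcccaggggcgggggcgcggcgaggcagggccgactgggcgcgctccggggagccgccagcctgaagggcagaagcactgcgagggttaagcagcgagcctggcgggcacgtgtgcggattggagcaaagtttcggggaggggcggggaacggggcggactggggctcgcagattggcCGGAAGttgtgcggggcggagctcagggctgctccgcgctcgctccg
Dusp6: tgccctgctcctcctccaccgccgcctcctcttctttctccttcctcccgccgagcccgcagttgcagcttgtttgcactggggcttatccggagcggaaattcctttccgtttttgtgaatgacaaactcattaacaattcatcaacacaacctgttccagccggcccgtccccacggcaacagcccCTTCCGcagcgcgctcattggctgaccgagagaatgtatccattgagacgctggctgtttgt

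The *Dusp6* window held the motif once, on the other strand, starting 62 bases before the start site. The *Fgfrl1* window held it once on the gene's own strand, 47 bases before the start site, and the *Spry1* window did not hold these letters. Both strands were searched and no other motif was sought. Of the 37 genes, 27 had at least 1 such window, and 6 of these (*Dusp6*, *Spred1*, *Spred2*, *Fgfrl1*, *Fgf12* and *Fgf23*) held the motif, 22.2% against 15.3% of the 27025 genes with a window. Of the 7 feedback genes with a window, 3 held it. The window of *Spred1* could not be matched to a GENCODE transcript of the gene. Over matched windows alone, 5 of 23 FGF genes and 2 of 6 feedback genes held the motif. A match describes letters only and is not a binding site.

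Levels are given as CPM, the count of a gene scaled to the size of its library with TMM factors. A gene was tested where 3 or more of the 6 libraries held 10 or more counts, which left 15354 genes and 26 of the 37 FGF genes, by edgeR's quasi-likelihood test of mutants against controls with Benjamini-Hochberg adjustment. No FGF gene passed the test. In edgeR the adjusted p was 0.999 for each of the 26, and 0 of them had an unadjusted p under 0.05, the range being 0.0694 to 0.904. The background in edgeR was 0% of the whole set tested at the adjusted threshold and 3.45% at the unadjusted one. DESeq2 called 0.169% of all genes at the adjusted threshold and 4.45% at the unadjusted one, and 0 of the 26 FGF genes at either. Log2 fold changes were below 0 in 18 of the 26 FGF genes, against 47.8% of all genes tested, and their median was -0.16 against 0.01 over all genes. The groups failed to overlap in 1 of the 26, *Fgf2*, against 8.87% of all genes. In a whole tissue, fewer cells of a type and less RNA per cell cannot be told apart.

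**Figure D1:**
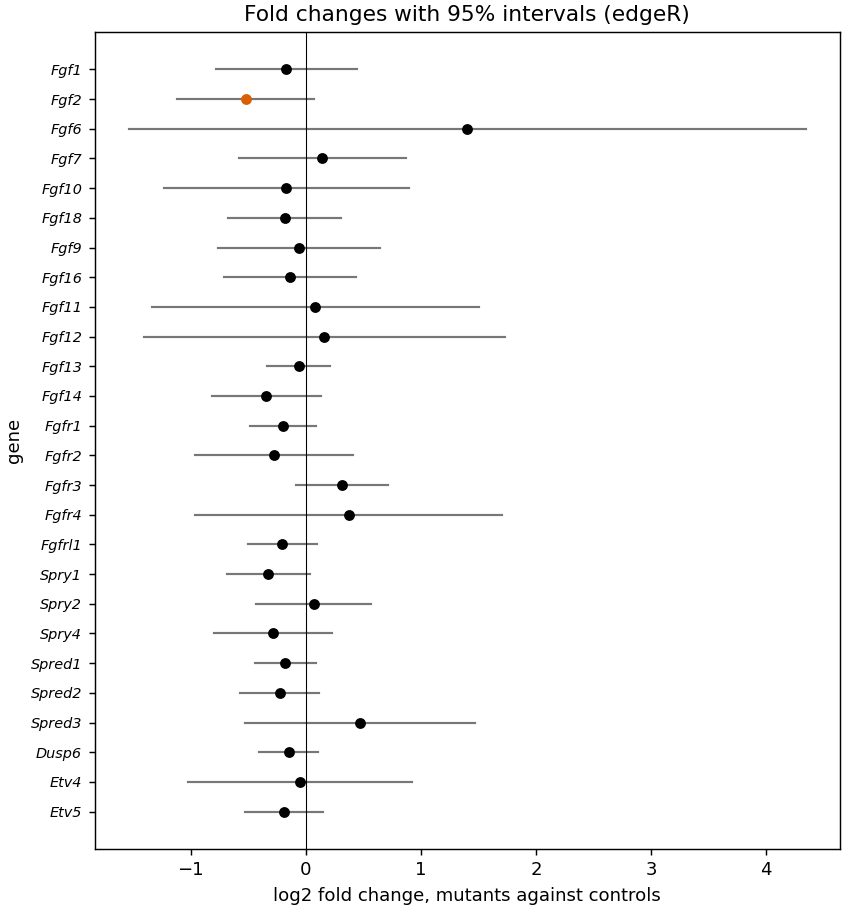
Log2 fold change of mutants against controls (points) with its 95% interval from edgeR (lines) for the 26 FGF genes tested, 3 libraries a group. Every interval includes 0, and *Fgf2*, in orange, was the single gene whose groups did not overlap; *Fgf6* rests on 29 counts or fewer in each library.

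The library totals ran from 32218345 to 55728852 fragments, so that 3 counts, the limit that a count of 0 allows, corresponded to 0.0559 to 0.0941 CPM, which covers counting error only. *Acvr1*, whose active form the mutants carry, was at 49.1, 60.4 and 67.3 CPM in controls and 56.4, 57.8 and 49.8 in mutants, and these counts do not separate the transgene from the normal gene. Valve interstitial, fibroblast and endothelial markers were all above 0 in each library, and so were those of cardiac and smooth muscle, whose summed level ran from 10999 to 40183 and from 3860 to 13970 CPM. Control 2 had the lowest cardiac and the highest smooth muscle sum, and mutant 1 the highest cardiac and the lowest smooth muscle sum. All 10 adipocyte markers had a log2 fold change below 0 (median -0.34, 0 without overlap), with summed levels of 598 to 1521 CPM in controls and 462 to 1159 in mutants. Of 9 blood and immune markers, 8 were above 0 (median 0.17), and 2 of them (*Cd68* and *Cd3e*) did not overlap between groups, against 4.04% of all genes in that direction, and had an edgeR p under 0.05, against 3.45%. *Hba-a1*, which is listed at 0 in control 3 and mutant 3, carried much of their summed level, and the other 8 summed to 743 to 1662 CPM in controls and 453 to 1956 in mutants. With the cardiac muscle score as a covariate, 18 of the 26 FGF genes were below 0 and the FGF median was -0.14. Single genes moved either way: *Fgf9* turned above 0 and *Fgf12* below it. The log2 fold change of *Fgfr2* went from -0.27 to -0.025, that of *Spry1* from -0.33 to -0.24 and that of *Spred3* from 0.47 to 0.60. The part of the adipocyte, blood and smooth muscle markers was not tested. Per gene, the FGF genes varied somewhat more between replicates than other genes, with a median coefficient of variation of 18.7% in controls and 17.8% in mutants against 14.9% and 15.2%.

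In level per kb, 6 FGF genes stood above all others, 2 of them feedback genes, 3 receptors and 1 a ligand. By all annotated exon bases, the median CPM per kb over 6 libraries was 24.6 for *Spry1*, 21.5 for *Fgfrl1*, 21.1 for *Dusp6*, 17.8 for the ligand *Fgf1*, 15.6 for *Fgfr1* and 15.1 for *Fgfr3*. The order within these 6 is not firm, since each overlapped its neighbor over the 6 libraries and the length used changes it: by the longest transcript *Fgfr1* came first at 30.6 CPM per kb, followed by *Spry1* at 25.8, and *Dusp6* was sixth at 23.7. By exon bases a gap then followed to *Fgf18* at 9.67, *Etv5* at 8.93 and *Fgf13* at 7.53. A further gap separated these from *Spred1* at 5.84 CPM per kb and the genes that followed it. By the longest transcript that gap closed, since *Fgfr2*, at 6.99 to 14.3 CPM per kb, overlapped *Fgf18*, *Etv5* and *Fgf13*. At the lower end stood *Spred3* at 0.244, *Fgf11* at 0.102 and *Fgf6* at 0.0387.

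**Figure D2:**
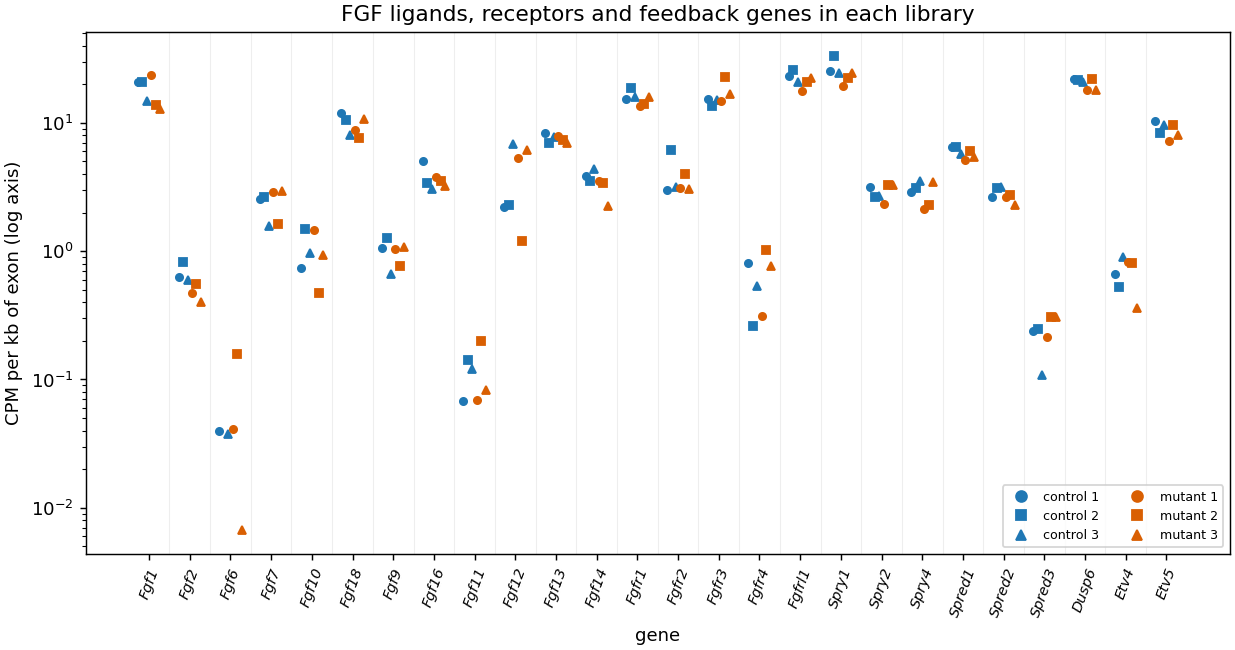
Level of each FGF gene tested in each library, as CPM per kb of exon on a log axis, with controls in blue and mutants in orange. *Spry1*, *Fgfrl1*, *Dusp6*, *Fgf1*, *Fgfr1* and *Fgfr3* lie at the top, control and mutant points of nearly every gene intermingle, and *Fgf6* in control 2, with a count of 0, is not drawn.

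Among the 18 genes of secreted ligands, 8 passed the minimum count, and the ligand RNA of the valve was mostly *Fgf1* and *Fgf18*. *Fgf1*, a ligand that can bind all 4 signaling receptors, took 49.3% ± 0.749 (SD, n = 3) of the summed ligand level per kb in controls and 47.9% (39.97% to 55.97%, n = 3) in mutants. *Fgf18*, known for its action on cartilage and bone through *Fgfr3*, took 26.7% ± 1.06 and 26.7% ± 6.18. *Fgf16*, a heart-enriched member of the FGF9 subfamily, took 10.04% ± 1.82 and 10.4% ± 1.66. These shares were steadier between the controls than between the mutants for *Fgf1* and *Fgf18*, which with 3 libraries a group was not tested. The summed ligand level was 38.2 ± 7.10 CPM per kb in controls and 34.4 ± 6.93 in mutants, a difference smaller than the spread within either group.

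*Fgf2*, the other member of the FGF1 subfamily (chr3:37348346-37410108, plus strand), was at 4.23, 5.63 and 4.04 CPM in controls and 3.20, 3.74 and 2.73 in mutants. Each control library was above each mutant library. Its log2 fold change was -0.52 (SE 0.25, 95% interval -1.11 to 0.07), with an edgeR p of 0.0754 and an adjusted p of 0.999, and among all genes 4.83% separated in this direction. The DESeq2 p was 0.0533. The level rested on 87 to 285 counts a library, and control 2, the library with the most *Fgf2*, was also the one highest in smooth muscle markers, whose part was not tested. *Nudt6*, on the opposite strand, shares 640 bases with the exons of *Fgf2*, or 9.44% of them, and stood at 12.8 to 21.4 CPM. The library kit is not stated to keep strand, so reads in the shared bases cannot be told apart.

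*Fgf1* had 115, 113 and 80.7 CPM in controls and 129, 75.1 and 70.6 in mutants. The highest and the lowest library were both mutants, and the log2 fold change was -0.17 (SE 0.26, 95% interval -0.78 to 0.44). It ran from -0.50 without mutant 1 to -0.013 without mutant 3. *Fgf18* (chr11:33117430-33147400, minus strand) had 14.2, 12.6 and 9.56 CPM in controls and 10.4, 8.97 and 12.7 in mutants. Its groups overlapped, with a log2 fold change of -0.18 (SE 0.21, 95% interval -0.67 to 0.31). It ran from -0.33 without control 3 to -0.05 without control 1. *Fgf16* on chromosome X had 8.35, 5.55 and 5.04 CPM in controls and 6.19, 5.76 and 5.30 in mutants, so that both the highest and the lowest library were controls.

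The ligands that mesenchyme makes for neighboring epithelium stood below *Fgf1* and *Fgf18* in level per kb. *Fgf7* was at 8.24, 8.53 and 5.13 CPM in controls and 9.33, 5.31 and 9.59 in mutants, with a log2 fold change of 0.15 (SE 0.30). *Fgf10* was at 3.43, 6.87 and 4.45 CPM in controls and 6.67, 2.17 and 4.26 in mutants, with a log2 fold change of -0.17 (SE 0.45). In both genes each group held a high and a low library. *Fgf9*, which signals from epithelia and mesothelium to mesenchyme, was at 4.94, 5.91 and 3.11 CPM in controls and 4.84, 3.59 and 4.99 in mutants.

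The remaining ligand genes had few counts or none. *Fgf6*, known from skeletal muscle, had 10, 0 and 8 counts in controls and 10, 29 and 1 in mutants, and its fitted log2 fold change of 1.40 (SE 1.24) rested on mutant 2, since it was 0.00011 without that library. *Fgf5* had 3, 41 and 24 counts in controls and 9, 9 and 0 in mutants. *Fgf3* had 3 counts in control 3, 9 in mutant 2, 5 in mutant 3 and 0 in the others. These 3 genes were thus seen in libraries of both groups, and their groups overlapped. *Fgf17* had 2 to 4 counts in every library, and *Fgf8*, *Fgf20* and *Fgf22* had at most 3 in any. The endocrine ligands, which act at a distance with a Klotho co-receptor, were close to absent: *Fgf21* had 4 counts in control 2 and 0 elsewhere, and *Fgf23* had 3 counts in control 3 and in mutant 1. *Fgf4* and *Fgf15* had 0 counts in all 6 libraries, which allows up to 0.0559 to 0.0941 CPM per library.

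The 4 genes of the FGF homologous factors, which resemble FGF but stay inside the cell and bind sodium channels, all passed the minimum count. *Fgf13*, on chromosome X, was the steadiest, at 33.8, 28.0 and 31.3 CPM in controls and 31.8, 29.3 and 28.2 in mutants. Its log2 fold change was -0.06 (SE 0.11), and the 95% interval of -0.33 to 0.21 is among the narrower ones here. *Fgf14* was at 16.05, 14.7 and 18.2 CPM in controls and 14.8, 14.2 and 9.47 in mutants, with a log2 fold change of -0.34 (SE 0.20), or -0.17 without mutant 3. *Fgf11* had 8 to 24 counts a library and a log2 fold change of 0.08 (SE 0.60).

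*Fgf12* (chr16:28160098-28753068, minus strand) differed far more between replicates than between groups. It was at 13.8, 14.2 and 42.2 CPM in controls and 32.8, 7.50 and 38.1 in mutants, so that each group held both high and low libraries. The log2 fold change was 0.16 (SE 0.66, 95% interval -1.40 to 1.73). The myosin light chain *Myl7*, a marker of atrial muscle, was at 1686, 1477 and 4076 CPM in controls and 4424, 865 and 3874 in mutants. The 3 libraries with the most *Fgf12* (control 3, mutant 1 and mutant 3) were the 3 with the most *Myl7*, and also the 3 with the most *Myl4* and *Sln*, which mark atrial muscle too, while mutant 2 was lowest in all 4 genes. *Myl2*, which marks ventricular muscle, followed another order, at 1983, 237 and 815 CPM in controls and 1467, 1302 and 856 in mutants. The part of atrial muscle in the level of *Fgf12* was not tested.

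**Figure D3:**
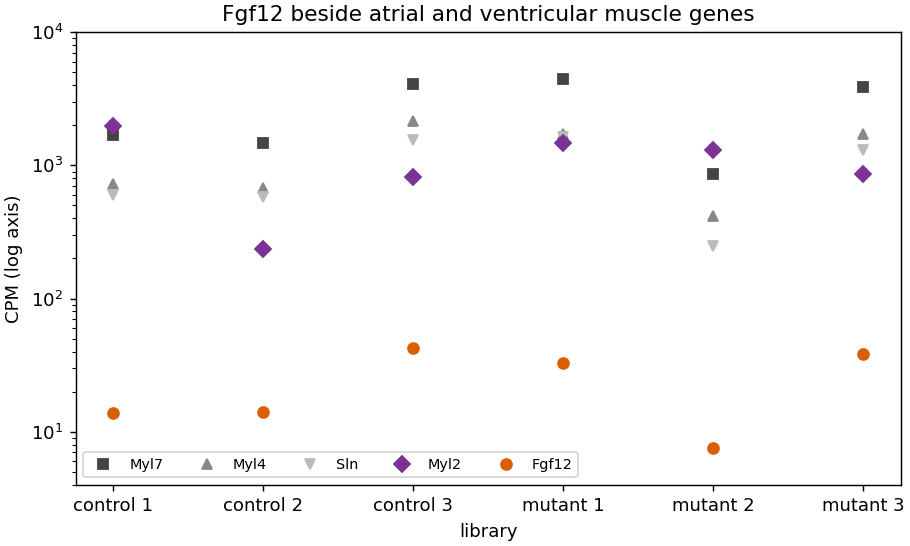
CPM of *Fgf12* in each library on a log axis, beside the atrial muscle genes *Myl7*, *Myl4* and *Sln* and the ventricular gene *Myl2*. *Fgf12* and the atrial genes are high in control 3, mutant 1 and mutant 3 and lowest in mutant 2, and *Myl2* is lowest in control 2.

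All 5 receptor genes were expressed, with *Fgfr1*, *Fgfr3* and the decoy-like *Fgfrl1*, which lacks the kinase domain, above *Fgfr2* and *Fgfr4* in level per kb. *Fgfr3* (chr5:33721674-33737068, plus strand), the receptor known for restraining cartilage growth, was at 109, 96.3 and 107 CPM in controls and 105, 163 and 121 in mutants. Mutant 2 stood highest, and mutant 1 lay among the controls. The log2 fold change was 0.32 (SE 0.17, 95% interval -0.08 to 0.71), and it was 0.12 without mutant 2.

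*Fgfr1* (chr8:25513654-25575718, plus strand), the main receptor of mesenchymal cells, was at 152, 185 and 157 CPM in controls and 133, 139 and 158 in mutants. The groups overlapped through mutant 3, and the log2 fold change was -0.20 (SE 0.12, 95% interval -0.49 to 0.09). *Fgfrl1* was at 64.4, 71.6 and 58.1 CPM in controls and 48.9, 58.1 and 61.6 in mutants, with a log2 fold change of -0.20 (SE 0.13). *Fgfr2*, which serves epithelial and mesenchymal cells through different splice forms, was at 31.0, 63.5 and 32.8 CPM in controls and 32.3, 41.5 and 31.4 in mutants. Control 2 alone lifted the control mean of *Fgfr2*: its log2 fold change was -0.27 (SE 0.29) with that library and 0.14 without it. With all libraries kept and the cardiac muscle score as a covariate, the log2 fold change of *Fgfr2* was -0.025. *Fgfr4*, the lowest of the receptors per kb, was at 2.87, 0.928 and 1.91 CPM in controls and 1.10, 3.59 and 2.73 in mutants, with a log2 fold change of 0.37 (SE 0.56).

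Because a share within a library does not depend on the scaling between libraries, the makeup of the receptor pool was compared as well, as each gene's part of the summed CPM per kb of the 5 genes. *Fgfr3* took 26.4%, 20.9% and 27.0% of the pool in controls and 29.9%, 36.2% and 28.7% in mutants. All mutants were above all controls, the means being 24.8% ± 3.39 (SD, n = 3) and 31.6% ± 4.04 (SD, n = 3). The difference of 6.81 percentage points had an exact two-sided permutation p of 0.1 (n = 3 against 3), the smallest that this design allows, and 0.25 adjusted over the 5 receptors, so that it did not pass. It ranged from 4.51 points without mutant 2 to 8.27 points with another library left out. *G630022F23Rik*, a gene on the opposite strand that is not in the count table, shares 998 bases, or 13.9%, of the *Fgfr3* exons.

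*Fgfrl1* took 40.2%, 40.0% and 37.63% in controls and 35.7%, 33.3% and 37.61% in mutants. Control 3 and mutant 3 nearly met, and the difference of -3.75 points had an exact permutation p of 0.1, with 0.25 after adjustment. With the length of the longest transcript, or without division by length, that p was 0.2. The share of *Fgfr1* was 28.2% ± 1.27 in controls and 25.7% ± 2.79 in mutants, with an exact permutation p of 0.3 for n = 3 against 3. The difference of -2.47 points was -0.862 without mutant 2, and without division by length it was -4.17 points, with an exact permutation p of 0.1. For *Fgfr2* and *Fgfr4* the mean shares differed by -0.850 and 0.255 points, with exact permutation p of 0.8 and 0.6. Put as a ratio per kb, *Fgfr1* to *Fgfr3* was 1.01, 1.40 and 1.06 in controls and 0.916, 0.621 and 0.949 in mutants, so that each mutant was below each control. Which gene of the pair is the larger depends on the length used: with the longest transcript the ratio was 1.18, 1.62 and 1.23 in controls and 1.06, 0.721 and 1.10 in mutants. This ratio was chosen after its parts were seen and was given no test.

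**Figure D4:**
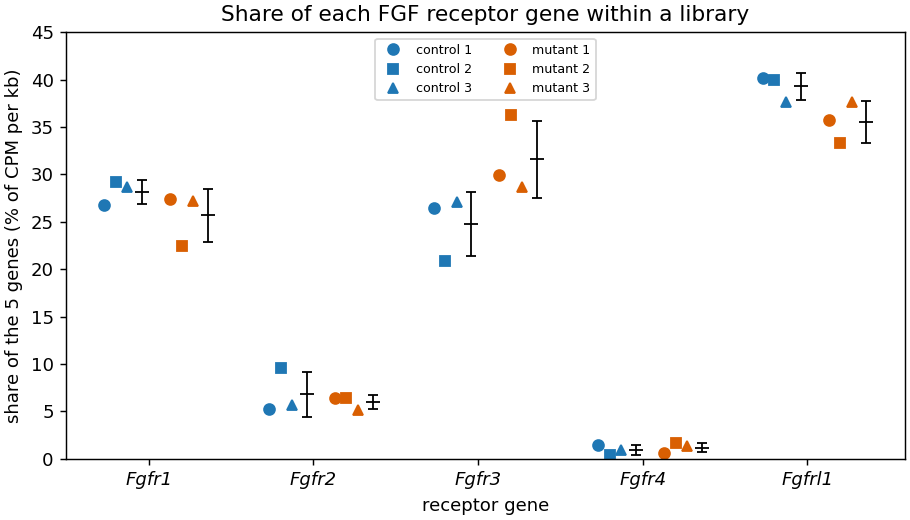
Share of each receptor gene in the summed CPM per kb of the 5 genes, in percent, for each control (blue) and mutant (orange) library, with the group mean and SD in black. The 3 mutants lie above the 3 controls for *Fgfr3* and below them for *Fgfrl1*, where mutant 3 and control 3 nearly touch.

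Of the 10 feedback genes, 9 passed the minimum count and *Spry3* had 0 counts in all 6 libraries. Log2 fold changes were below 0 in 7 of the 9, from -0.33 to 0.47 with a median of -0.18, none of them past a test. *Spry1* was at 74.0, 96.5 and 71.5 CPM in controls and 56.2, 65.3 and 71.6 in mutants. Mutant 3 matched the lower controls and mutant 1 was lowest. The log2 fold change was -0.33 (SE 0.15, 95% interval -0.69 to 0.03), with an edgeR p of 0.0694, the smallest among the FGF genes, and an adjusted p of 0.999. Without control 2 it was -0.17, with an edgeR p of 0.217. *Gm42922*, an annotated transcript on the opposite strand, shares 24.4% of the *Spry1* exon bases.

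The order of the libraries in *Spry1* was the same throughout as in the summed smooth muscle markers. The summed CPM of the 8 smooth muscle markers was 7768, 13970 and 6929 in controls and 3860, 6457 and 7045 in mutants, with control 2 highest and mutant 1 lowest, as for *Spry1*. Of these 8 markers, 7 had a log2 fold change below 0, 3 (*Myh11*, *Tagln* and *Smtn*) did not overlap between groups, all lower in mutants, as 4.83% of all genes were. Of the 8, 1 (*Smtn*) had an unadjusted p under 0.05 in edgeR, against 3.45% of all genes, and 5 had one in DESeq2, against 4.45% of all genes. Their part in the level of *Spry1* was not tested.

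The other Sprouty genes were lower per kb and showed no common direction. *Spry2* was at 6.60, 5.49 and 5.58 CPM in controls and 4.90, 6.82 and 6.84 in mutants, with a log2 fold change of 0.07 (SE 0.21). The groups of *Spry2* crossed fully, mutant 1 being the lowest library and the other mutants the highest. *Spry4* was at 13.8, 14.9 and 16.9 CPM in controls and 10.1, 10.8 and 16.6 in mutants, with a log2 fold change of -0.28 (SE 0.22), which ran from -0.54 without mutant 3 to -0.15 without mutant 1. Here mutants 1 and 2 were below every control and mutant 3 was not.

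The *Spred* genes, membrane-bound inhibitors of Ras and Raf signaling, were led by *Spred1* in level per kb. *Spred1* was at 44.3, 44.2 and 38.5 CPM in controls and 34.6, 40.8 and 36.8 in mutants, and its log2 fold change was -0.18 (SE 0.11). *Spred2* was at 12.3, 14.3 and 14.7 CPM in controls and 12.1, 12.6 and 10.6 in mutants, with a log2 fold change of -0.22 (SE 0.14). *Spred3* was scarce at 0.673 to 1.92 CPM, and its log2 fold change of 0.47 (SE 0.42) was the highest of the feedback genes, falling to 0.18 without control 3.

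*Dusp6* was the steadiest readout in the controls. It was at 68.1, 67.8 and 64.7 CPM in controls and 56.3, 68.5 and 56.3 in mutants. Mutants 1 and 3 lay below every control and mutant 2 above them all. The log2 fold change was -0.15 (SE 0.11, 95% interval -0.40 to 0.11). *Etv5* was at 42.2, 34.0 and 39.6 CPM in controls and 29.6, 39.3 and 32.8 in mutants, with a log2 fold change of -0.19 (SE 0.14). *Etv4*, lower than *Etv5* per kb, was at 2.05, 1.62 and 2.78 CPM in controls and 2.55, 2.53 and 1.13 in mutants. The study had named *Spry2* and *Etv5* as genes that follow FGF signaling, and the 95% intervals of their log2 fold changes were -0.43 to 0.57 and -0.53 to 0.15.

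As 1 value per library, the mean log2(CPM + 0.5) of the 9 feedback genes was 3.99, 3.98 and 3.93 in controls and 3.74, 3.98 and 3.86 in mutants. The SD was 0.0298 among the controls and 0.117 among the mutants, and the means differed by -0.11. This difference was -0.05 without mutant 1 and -0.17 without mutant 2. Mutant 1 was the lowest library in 6 of the 9 feedback genes and in 8 of the 14 receptor and feedback genes. Control 2 was the highest library in 3 of the 5 receptor genes and the lowest in the other 2, *Fgfr3* and *Fgfr4*.

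**Figure D5:**
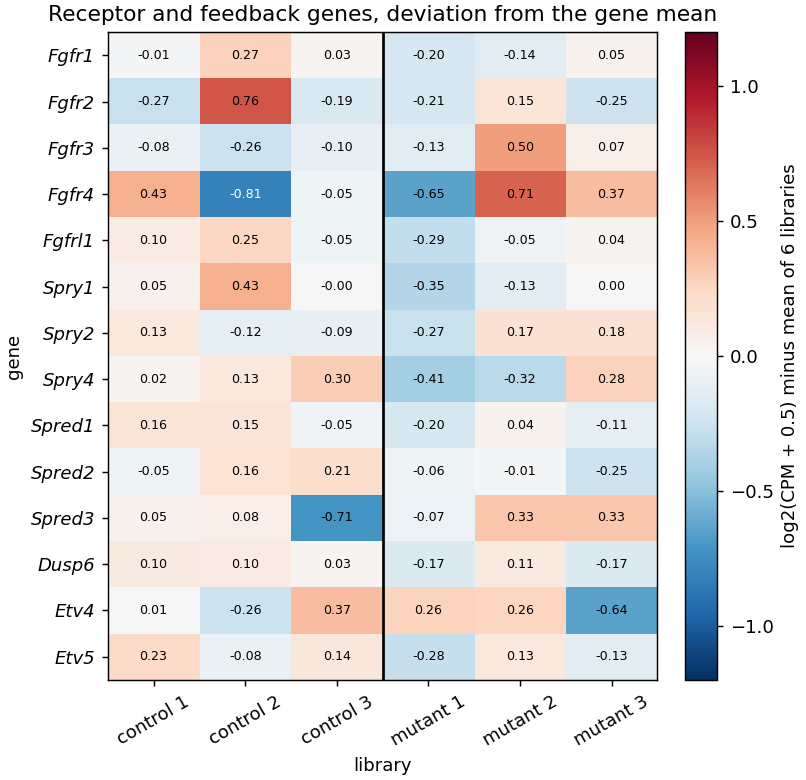
Receptor and feedback genes in each library, as log2(CPM + 0.5) minus the gene's mean over the 6 libraries, with blue below and red above the mean and a black line between controls and mutants. Mutant 1 is blue in all rows but *Etv4*, and control 2 is highest in *Fgfr1*, *Fgfr2*, *Fgfrl1* and *Spry1*.

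The other genes of the pathway were followed in 3 lists. Of 26 co-receptors and heparan sulfate cofactors, all tested, 9 had a log2 fold change above 0 and 17 below, with a median of -0.12. None had an unadjusted p under 0.05 in edgeR or in DESeq2, where 3.45% and 4.45% of all genes had one. *Klb*, the co-receptor for endocrine FGF, had 13, 50 and 18 counts in controls and 15, 1 and 1 in mutants, with an edgeR p of 0.0700. Mutant 1 lay within the control range. *Sdc1*, a heparan sulfate proteoglycan of the cell surface, was at 94.8, 150 and 93.0 CPM in controls and 52.7, 96.6 and 80.8 in mutants, with a log2 fold change of -0.55 (SE 0.27), or -0.29 without control 2. *Hspg2*, which encodes perlecan of the basement membrane, had a log2 fold change of 0.17 (SE 0.12), or 0.067 without mutant 3.

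Of the genes that relay the receptor signal in the cell, 26 of 29 listed were matched and tested, 14 above and 12 below 0, with a median of 0.01. In edgeR 0 had an unadjusted p under 0.05, against 3.45% of all genes, and in DESeq2 1 had, against 4.45%, a share near the background. That gene was *Ptpn11*, the phosphatase that FGF receptors need for full activation of Ras, at 58.4, 53.5 and 60.3 CPM in controls and 62.2, 71.2 and 111 in mutants. All mutants were above all controls, as in 4.04% of all genes, with mutant 3 far above the rest, and the log2 fold change was 0.51 (SE 0.21, edgeR p of 0.0507). With mutant 3 left out, its log2 fold change was 0.22. The adaptor *Shc1* was at 185, 213 and 189 CPM in controls and 170, 181 and 140 in mutants, also with no overlap, and *Plcg1*, named after its values were seen, was the third gene without overlap, in the lower direction. The 3 of 26 are 11.5%, against 8.87% of all genes, and the 2 lower ones stand against 4.83%. The receptor substrate *Frs2*, which links FGF receptors to Ras, had a log2 fold change of -0.27 (SE 0.14).

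Of 21 other inhibitors and ERK target genes, 20 were tested, 11 above and 9 below 0, with a median of 0.08. In edgeR 4 of the 20 had an unadjusted p under 0.05, against 3.45% of all genes, and in DESeq2 5 had one, against 4.45%. The lists were chosen with earlier results of these data known, so shares above the background cannot be read as enrichment. The groups did not overlap in 2 genes in the higher and 3 in the lower direction, against 4.04% and 4.83% of all genes. In edgeR 0 of them passed adjustment over all genes, and in DESeq2 1 did. *Lrrc4*, a leucine-rich repeat protein of the synapse, was at 2.31, 1.58 and 2.32 CPM in controls and 4.92, 6.06 and 4.64 in mutants. The mutants stood well above the controls. Its log2 fold change was 1.33 (SE 0.27), with an edgeR p of 0.00159 and adjusted p of 0.999, while DESeq2 gave an adjusted p of 0.00421. *Dusp14* and *Spsb1* did not overlap between groups, the mutants being lower, with log2 fold changes of -0.72 (SE 0.27, edgeR p of 0.0341) and -0.36 (SE 0.14, edgeR p of 0.0372). Named after their values were seen, *Phlda1* was the fourth gene with an unadjusted p under 0.05, and *Dusp4* (lower) and *Ier3* (higher) completed the genes without overlap.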

How the data were processed

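RNA was isolated from aortic valves with an RNeasy kit, and libraries were prepared with a TruSeq kit and sequenced on a HiSeq4000. The deposited values are estimated counts per gene, which the authors made with TopHat2, Bowtie2 and Cuffdiff 2.1.1 on mm10, not scaled for library size. The submitters' processing notes give Bowtie2 2.2.1, and the paper another version. The annotation is not given in the sources used here. Values were rounded to whole numbers (1.66 to 1.87% were not whole).

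Counts were tested in R 4.3.3 with edgeR 4.0.16 (TMM, quasi-likelihood F test, no covariates) on genes where 3 or more of 6 libraries held 10 or more counts, and p-values were adjusted over all 15354 genes. The biological coefficient of variation was 0.278. Scripts were tested on simulated data. Cuffdiff was not rerun, since reads were not used. Exon lengths and positions came from GENCODE vM21 on GRCm38. The alternatives were DESeq2 1.42.0, other scaling, other filters, limma 3.58.1 (voom with quality weights), a cardiac muscle covariate, a replicate block and leaving out each library.

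The FGF members and all lists were chosen with earlier results of these data known. By the rule for named genes, every member could be named, and from each of the 3 further pathway lists the 3 genes with the smallest unadjusted p. Deviations of same-numbered libraries from their group means correlated at 0.373, 0.171 and 0.0194. These values were not set against those of differently numbered libraries, so they do not settle whether the numbers pair samples. The main test took the libraries as unpaired. No libraries were duplicates of each other.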

Additional observations from a re-analysis of the deposited data

How the results depend on the processing

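No FGF gene had an adjusted p under 0.05 under any alternative. DESeq2 gave 26 genes in the whole table where edgeR gave 0. With 1 library left out, between 0 and 2 FGF genes had an unadjusted p under 0.05: *Fgf1* and *Fgfr3* without mutant 1, *Dusp6* without mutant 2 and *Spry4* without mutant 3. Of all genes, 3.93%, 3.63% and 3.15% had one in these 3 fits. The median log2 fold change of the FGF genes stayed between -0.19 and -0.11. With a replicate block, 0 genes passed adjustment and the FGF median was -0.17. An unadjusted p under 0.05 was found in 814 genes with the block and in 529 without it. The block thus changed no call at the adjusted threshold, and it left 0 FGF genes with an unadjusted p under 0.05.

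Signs turned in some genes. Under voom quality weights *Fgf9* was 0.13 and *Fgf12* -0.16, and with the cardiac muscle covariate 0.027 and -0.20. Other genes kept their sign but moved by over 1.5 times under voom weights. Among them were *Fgfr2* (-0.27 to -0.0085), *Spry1* (-0.33 to -0.20), *Fgf6* (1.40 to 0.45), *Fgfr4* (0.37 to 0.16) and *Etv4* (-0.051 to -0.29). Over the fits that left out 1 library, the log2 fold change ran from -0.27 to 0.12 in *Fgf16*, -0.54 to 0.36 in *Fgf11*, -0.21 to 0.90 in *Fgf12*, -0.13 to 0.0047 in *Fgf13*, -0.61 to 0.16 in *Fgf10*, -0.28 to 0.15 in *Fgf9*, -0.46 to 0.14 in *Fgfr2*, -0.057 to 0.37 in *Fgf7*, -0.23 to 0.24 in *Etv4*, -0.0020 to 0.80 in *Fgfr4* and -0.0086 to 0.21 in *Spry2*. In the other 15 genes the sign held. Leaving out 1 library still moved the value by over 1.5 times in genes such as *Fgfr1* (-0.27 without mutant 3 to -0.10 without control 2), *Fgfrl1* (-0.28 without control 3 to -0.11 without mutant 1), *Dusp6* (-0.25 without mutant 2 to -0.10 without mutant 1) and *Etv5* (-0.31 without mutant 2 to -0.097 without mutant 1). The receptor share of *Fgfr2* ran from -1.66 to 0.512 points and that of *Fgfr4* from -0.0063 to 0.531. The cause was not tested for any of these. The lengths of the longest transcripts for the order of levels and for the *Fgfr1* to *Fgfr3* ratio, the matched promoter windows and the blood sum without *Hba-a1* were alternatives chosen after seeing the data.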
